A study of Mus musculus with 4 samples.

Results

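Accessible regions were examined at 44 mouse genes of glucose and fatty acid use, out of 21887 protein-coding genes: 23 of glycolysis, lactate and glucose transport and pyruvate entry, 15 of fatty acid uptake and oxidation, and 6 transcriptional regulators of these pathways. A peak, a stretch of the genome where the reads of a library pile up above background, was assigned to a gene when its summit lay inside the gene or within 2 kb of either boundary (GRCm38). The genes were chosen by function with peak results of these same libraries known, and Pfkfb2 was selected on its strong region in both miR-187 lists, so its pattern is given as a description. All 44 were in the gene table, and 38 (86.4%) had a peak in at least 1 library.

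The libraries were made by ATAC-seq, in which a transposase inserts sequencing adapters into open chromatin. Hearts of mice at P0, the day of birth, gave 2 WT libraries and 2 miR-187 libraries. The miR-187 mice carried a single-copy knock-in of mmu-miR-187 at the Rosa26 locus, under the Tek (Tie2) promoter that acts in endothelial cells, on the C57BL/6J background, and the study describes them as homozygous (KI/KI) and the WT mice as +/+, while the labels give neither this nor the number of animals behind a library. The labels name heart tissue, whereas the study describes endothelial cells captured from these hearts with beads against CD31.

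Glycolysis splits glucose to pyruvate in the cytosol, and phosphofructokinase, its committed step, is set by a sugar bisphosphate that the Pfkfb enzymes make and degrade. Pyruvate leaves as lactate or enters mitochondria, where the pyruvate dehydrogenase kinases limit its oxidation. Long-chain fatty acids are taken up, activated to acyl-CoA, passed through the carnitine shuttle and shortened by beta-oxidation, the route on which the mammalian heart comes to rely after birth, when it turns away from the glycolytic metabolism of the fetus.

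The 4 lists differed in length and depth, which bears on every comparison of the groups. WT replicates 1 and 2 held 9452 and 12298 peaks, and the miR-187 replicates 7496 and 1483. The read density that the peak values imply for the background was 1.7, 5.06 and 1.95 times that of miR-187 replicate 2 in the other 3 libraries, in the same order. With background alone at a site, at least 4, 7, 5 and 4 reads at the summit were needed for a call, so a gene without a peak in a shallow library was not shown to be closed. In bulk libraries, fewer cells of a type and less signal per cell cannot be told apart. The shares of all protein-coding genes with a peak were 30.9%, 39.7%, 27.0% and 5.22%, which stand beside the marker counts that follow. Of 18 endothelial marker genes, 6, 11, 7 and 2 had a peak (33.3%, 61.1%, 38.9% and 11.1%). Pecam1 (which encodes CD31) was listed in all libraries but miR-187 replicate 2, and Emcn, Sox18 and Cldn5 in none. Fli1 and Ets1 were in the same lists as Pecam1, Tek in WT replicate 2 and miR-187 replicate 1, and Kdr in replicate 1 of each group. Tie1, Flt1, Erg, Eng, Egfl7 and Sox17 were in WT replicate 2 alone and Robo4 in WT replicate 1 alone. Cdh5 was in both WT lists and miR-187 replicate 2, Esam in both miR-187 lists alone and Vwf in miR-187 replicate 1 alone. Of 18 cardiomyocyte markers, 3, 4, 2 and 0 had a peak (16.7%, 22.2%, 11.1% and 0%). Tnni1 was in all libraries but miR-187 replicate 2, Ryr2 in replicate 1 of each group, and Tnnt2, Myl2, Myl3 and Myl4 in a WT list each. The other 12, such as Myh6, Myh7 and Ttn, were in none. Of 8 fibroblast markers 3, 5, 1 and 0 had a peak (37.5%, 62.5%, 12.5% and 0%). The 3 in both WT lists (Col1a1, Col1a2 and Postn) were in neither miR-187 list, while Col3a1 was in miR-187 replicate 1 alone. Among all protein-coding genes in both WT lists, 33.6% were in neither miR-187 list. Of 4 mural markers, Acta2 was in miR-187 replicate 2 alone, and Myh11, Pdgfrb and Rgs5 were in none. Immune markers with a peak numbered 2, 1, 1 and 0 of 6, and erythroid markers 0, 1, 0 and 0 of 6. The part of cell composition in the results below was not tested.

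Pfkfb2, the heart isoform of the bifunctional enzyme that makes and degrades the activator of phosphofructokinase, had a peak at 1 of its 3 table start sites in both miR-187 libraries and in neither WT library. The gene spans chr1:130689043-130729253, and the merged region chr1:130715520-130715947 lay inside it, 13.5 kb from the nearer boundary. For miR-187 replicate 1 the summit was 27 bp downstream of the start site at position 130715821, with 14 reads and a fold enrichment over local background of 6.47. In miR-187 replicate 2 it was 139 bp downstream, with 9 reads and a fold of 7.58, in a peak that began 8 bp past the site. These peaks stood at percentile ranks of 84.4 and 95.3 within their own lists when peaks were ordered by −log10 p. The nearest summit in the WT lists was 127 kb away in replicate 1 (fold 5.15, 6 reads) and 165 kb away in replicate 2 (fold 4.2, 11 reads), both at Zp3r. The start site is shared ground: it also falls in the 2 kb window of the neighbouring gene Yod1, and a second, weaker peak of miR-187 replicate 1 (fold 4.09, 8 reads) lay 146 bp from the start of Yod1. Of all protein-coding genes, 37 (0.169%) had a peak in both miR-187 lists and in neither WT list. Pfkfb2 was the only one of the 44, and as it was selected on this contrast nothing is read from the count.

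The 250 bases before that start site are shown because both miR-187 peaks lie at it. The sequence is from RefSeq (GRCm38.p6, minus strand, chr1:130715822-130716071), and capitals mark matches on either strand to the GC box, the CCAAT box and the E-box. The GC box was searched as GGGCGG. The letters of the E-box searched here, CACGTG, hold the core of the hypoxia response element.
Pfkfb2: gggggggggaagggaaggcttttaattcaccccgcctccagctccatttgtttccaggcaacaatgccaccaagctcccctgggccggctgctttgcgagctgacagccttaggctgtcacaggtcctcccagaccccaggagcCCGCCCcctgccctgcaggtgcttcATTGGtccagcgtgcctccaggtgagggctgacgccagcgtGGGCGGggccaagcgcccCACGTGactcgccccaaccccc
A match is a description of the letters in this window and not a bound site. A second table start site of Pfkfb2, at position 130716048, lies within this stretch.

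Pfkfb3, the related enzyme with the highest kinase to phosphatase activity and a role in endothelial glycolysis, was listed in both WT libraries. It had 4 peaks in each WT library, 7 in miR-187 replicate 1, and miR-187 replicate 2 listed none. At its start site at position 11553929 of chromosome 2 the summits held 14 reads (fold 7.73) and 15 reads (fold 5.71) in WT replicates 1 and 2, and 9 reads (fold 5.81) in miR-187 replicate 1, all within 76 bp of the site. A second start site had 14 reads in WT replicate 1 and 16 in miR-187 replicate 1, the Pfkfb3 peak with the most reads in that library, while the nearest summit of WT replicate 2 lay 650 bp downstream of that site (fold 4.27, 24 reads). An intragenic region at chr2:11534967-11535785, far from either start site, was in the same 3 libraries (folds 4.9, 6.3 and 6.9). The map of peaks around start sites sets Pfkfb2 and Pfkfb3 side by side.

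**Figure D1:**
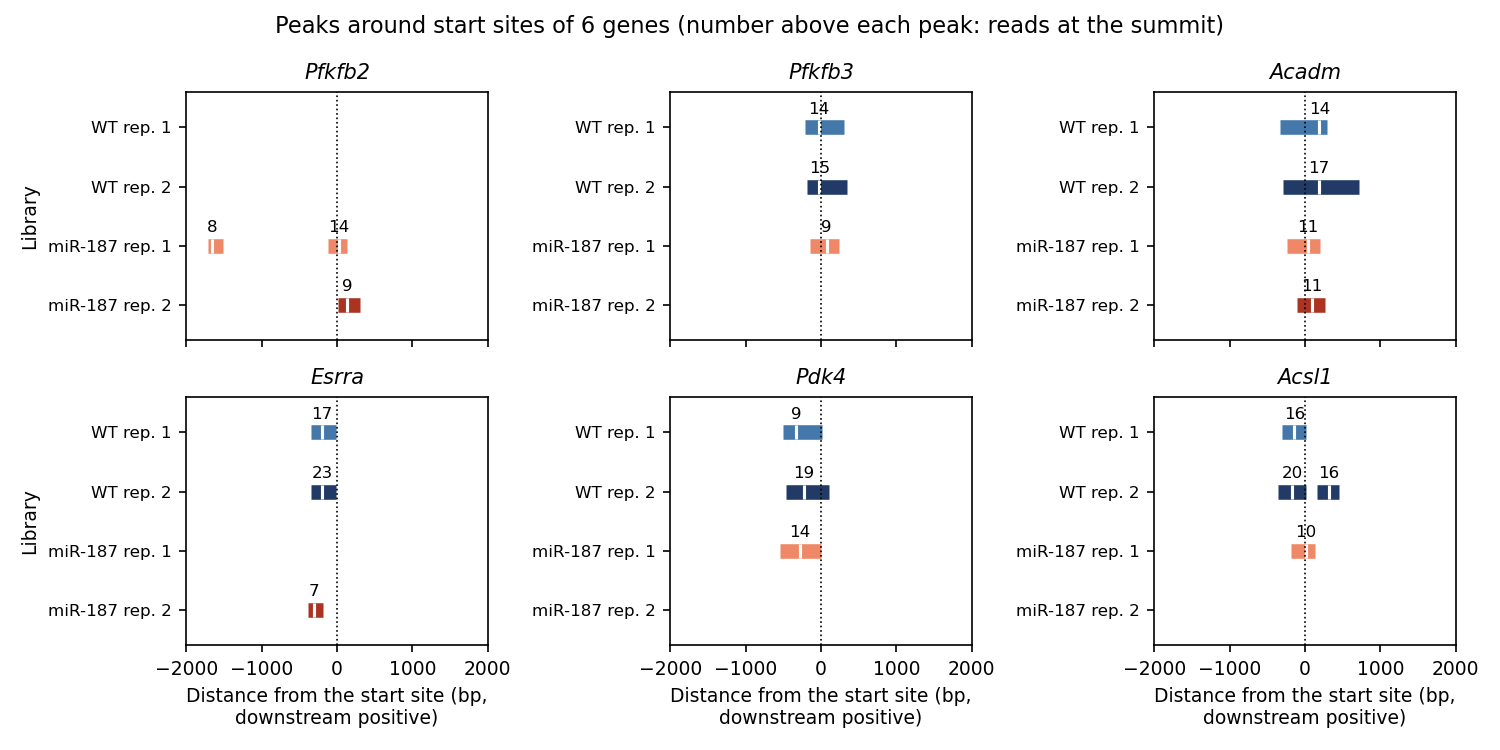
Peaks within 2 kb of a start site of 6 genes, by library; bars are the extents of peaks, white ticks their summits, and the numbers above them the reads at the summit, with distance in bp from the start site on the horizontal axis. Pfkfb2 has peaks only in the miR-187 libraries (14 and 9 reads at the start site), Acadm in all 4, and Esrra has none at its own start site in miR-187 replicate 1.

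Across the 44 genes, 23 (52.3%, 95% Wilson interval 37.9% to 66.2%) had a peak in WT replicate 1, where the share of all protein-coding genes was 30.9%. The count was 29 (65.9%, 51.1% to 78.1%) in WT replicate 2, against 39.7% of all genes. It was 23 (52.3%, 37.9% to 66.2%) in miR-187 replicate 1, against 27.0% of all genes, and 5 (11.4%, 4.95% to 24%) in miR-187 replicate 2, against 5.22%. The intervals cover counting error only. The share of the 44 was above the share of all genes in each library, by a mean of 19.7 percentage points. This excess was 8.42 with lists of equal length and 12.8 with a −log10 q of at least 5. The 44 genes were somewhat longer (median 22829 bp against 17169 bp). The part of gene length in the share was not tested.

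WT averaged 26 ± 4.24 of the 44 genes (SD, n = 2) and miR-187 14 ± 12.7 (SD, n = 2), a difference of -12 genes. The groups met at 23 genes, because WT replicate 1 and miR-187 replicate 1 had the same count, and the whole difference came from the other 2 libraries. With 2 libraries a group the smallest exact permutation p is 2 of 6 assignments, and no p is given for a count over chosen genes. When reads were thinned to the lowest background density, the expected counts became 15.4, 7.34, 15.6 and 5, with both WT replicates given before both miR-187 replicates, and the group difference shrank to -1.07 genes. The matching shares of all genes after thinning were 20.1%, 9.59%, 16.8% and 5.22%.

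**Figure D2:**
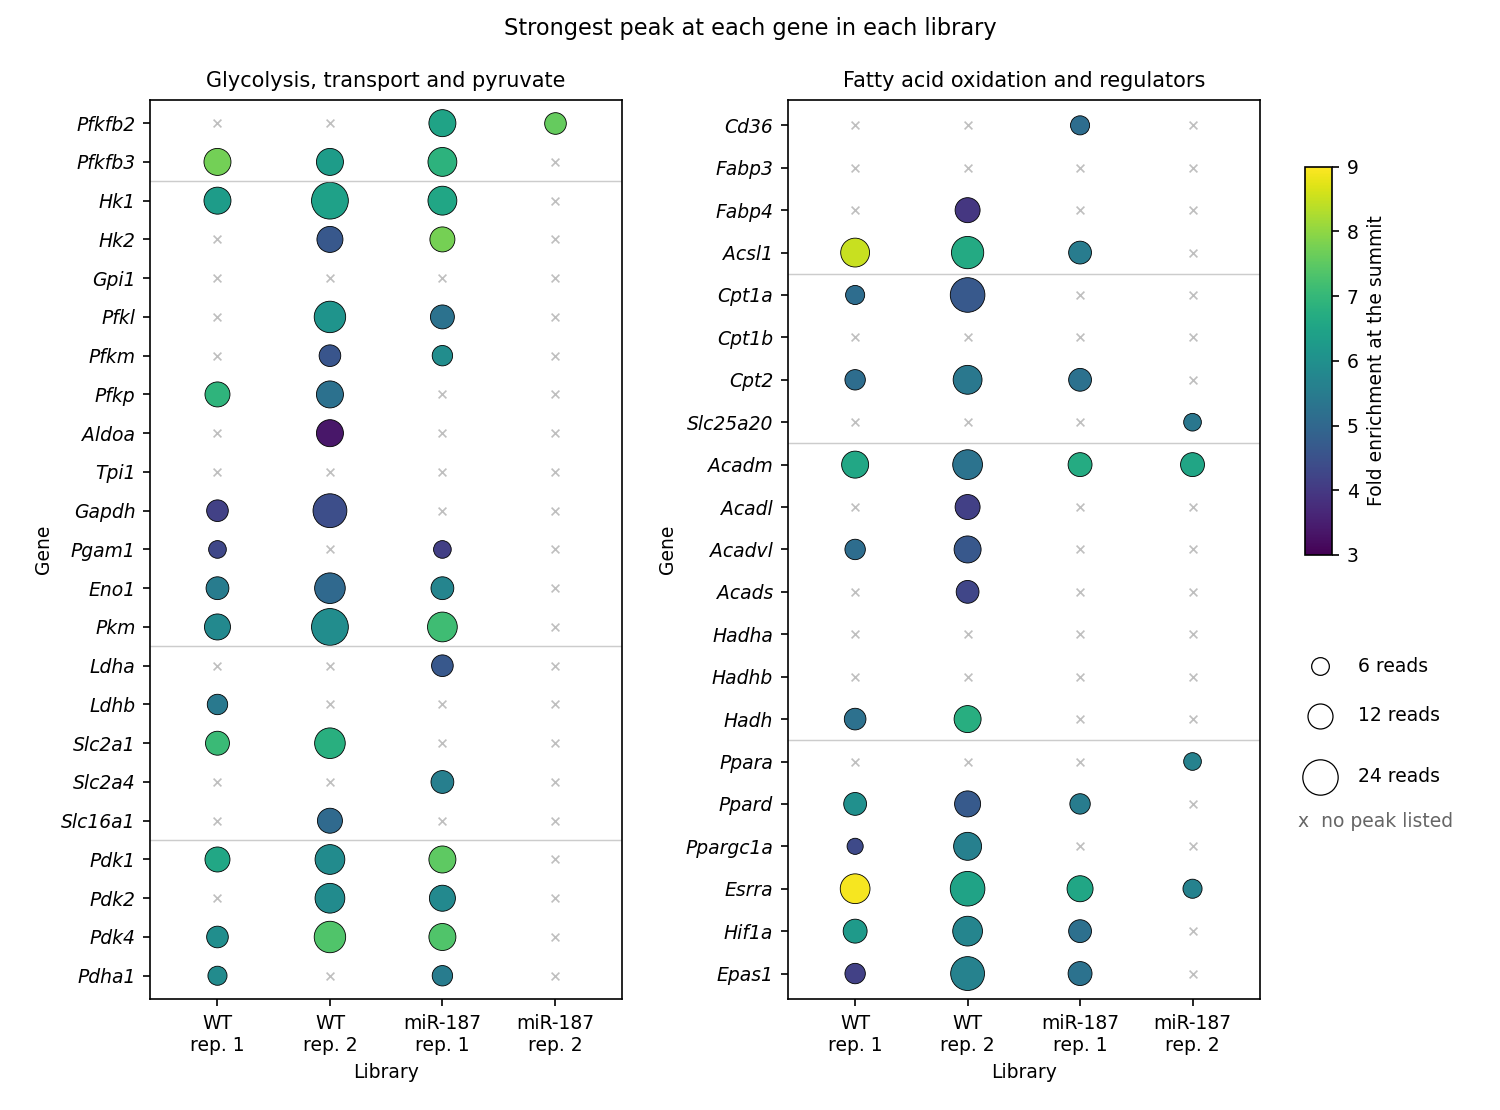
Strongest peak at each of the 44 genes in each library; circle area is the number of reads at the summit, colour the fold enrichment, and a cross marks a gene with no peak listed. Most genes are filled in the WT libraries and miR-187 replicate 1, and 5 are filled in miR-187 replicate 2.

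The 12 enzymes that run from hexokinase to pyruvate kinase had peaks at 6, 9, 7 and 0 genes in the 4 libraries (50%, 75%, 58.3% and 0%). The shares of all protein-coding genes were 30.9%, 39.7%, 27.0% and 5.22%, which also stand beside the pathway counts below. Pkm, pyruvate kinase, had 13 reads (fold 5.83) and 26 reads (fold 5.92) in WT replicates 1 and 2 and 17 reads (fold 7.14) in miR-187 replicate 1, all upstream of its start site by 225, 220 and 75 bp. Hk1, the widely expressed hexokinase, had folds of 6.3, 6.4 and 6.54 in the same 3 libraries with 14, 26 and 16 reads, at summits next to the start of its antisense neighbour Hk1os. Eno1, an enolase, was similar (folds 5.5, 5.03 and 5.73, with 10, 18 and 10 reads). At all 3 genes the fold in miR-187 replicate 1 was above the folds of both WT libraries, although the groups cannot be compared with 1 miR-187 value. Of the other listed genes with a peak in these libraries, the strongest peak had this order at Pdk1 and Acadm. It did not at Pfkfb3, Pdk4, Acsl1, Cpt2, Ppard, Esrra, Hif1a and Epas1.

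Hk2, the insulin-responsive hexokinase of muscle, had a peak at its start site in WT replicate 2 (fold 4.64, 13 reads) and 164 bp upstream in miR-187 replicate 1 (fold 6.48, 13 reads), which also held a stronger one 10120 bp into the gene (fold 7.74, 12 reads). The phosphofructokinase genes divided. Pfkl, the liver type, was listed in WT replicate 2 (fold 6.1, 19 reads) and miR-187 replicate 1 (fold 5.26, 11 reads). Pfkm, the muscle type, was in the same libraries, though at separate places. Its WT peak (fold 4.59, 9 reads) lay 462 bp from a Pfkm start site and 324 bp from the start of Senp1. The miR-187 peak (fold 5.92, 8 reads) lay on another Pfkm start site. Pfkp, the platelet type, had a peak at its start site in both WT libraries (folds 6.91 and 5.24, 12 and 14 reads) and none in the miR-187 libraries.

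Gapdh had a peak 84 and 99 bp downstream of its start site in WT replicates 1 and 2 (folds 4.17 and 4.41, 9 and 22 reads) and none in either miR-187 library; WT replicate 2 had another at the 3′ side, in the window of Iffo1. Pgam1, a phosphoglycerate mutase, had weak peaks of 6 reads in WT replicate 1 and miR-187 replicate 1 (folds 4.27 and 4.12) that did not overlap. Aldoa, the muscle aldolase, was listed in WT replicate 2 alone (fold 3.36, 14 reads), the lowest fold among the 112 peaks at these genes. Gpi1 and Tpi1 had no peak in any library.

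Of the 5 genes of lactate and glucose transport, 2, 2, 2 and 0 had a peak (40%, 40%, 40% and 0%). Slc2a1, which encodes the glucose transporter GLUT1, had a peak in both WT libraries (folds 7.06 and 6.79, 11 and 18 reads), 598 bp downstream of the start site in replicate 1 and 145 bp upstream in replicate 2, and none in the miR-187 libraries. The remaining 4 were each in 1 list. Ldhb, the heart-type lactate dehydrogenase subunit, was in WT replicate 1 (fold 5.42, 8 reads), and the lactate carrier gene Slc16a1 in WT replicate 2 (2 peaks, the stronger with a fold of 5.04 and 12 reads). Ldha, the muscle-type subunit (fold 4.63, 9 reads), and Slc2a4, the insulin-responsive glucose transporter gene (fold 5.56, 10 reads, 366 bp outside the gene), were in miR-187 replicate 1.

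The 4 genes that govern pyruvate entry had peaks in 3, 3, 4 and 0 of them (75%, 75%, 100% and 0%). Pdk4, the pyruvate dehydrogenase kinase that fasting and fatty acids induce, had folds of 5.95 and 7.35 in WT replicates 1 and 2 and 7.35 in miR-187 replicate 1, with 9, 19 and 14 reads at 332, 227 and 278 bp upstream of its start site. Pdk1, the kinase induced by hypoxia, had folds of 6.57, 5.88 and 7.5 in those libraries with 12, 17 and 14 reads. Pdk2, another of these kinases, was in WT replicate 2 and miR-187 replicate 1 at almost the same place (folds 5.88 and 5.83, 17 and 13 reads). Pdha1, a pyruvate dehydrogenase subunit, was in WT replicate 1 and miR-187 replicate 1 (folds 5.88 and 5.49, 7 and 8 reads) in peaks that did not overlap. All 3 kinase genes were thus listed in miR-187 replicate 1, with a fold above both WT folds at Pdk1, equal to the higher WT fold at Pdk4, and below the single WT fold at Pdk2.

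Fatty acid uptake and activation gave 1, 2, 2 and 0 of 4 genes (25%, 50%, 50% and 0%). Acsl1, the main heart acyl-CoA synthetase, had the second highest fold of any peak at the 44 genes, 8.5 with 16 reads in WT replicate 1. Its peaks at the start site had 20 reads in WT replicate 2 (fold 6.65) and 10 reads in miR-187 replicate 1 (fold 5.5), so the miR-187 value was the lowest of the 3. Cd36, the fatty acid translocase, was in miR-187 replicate 1 alone with 2 peaks of 7 reads (folds 5.06 and 5.13), and Fabp4, a fatty acid binding protein of capillary endothelium and fat, in WT replicate 2 alone (fold 3.94, 12 reads). Fabp3, the heart fatty acid binding protein gene, had no peak.

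The carnitine shuttle gave 2, 2, 1 and 1 of 4 genes (50%, 50%, 25% and 25%). Cpt2, which restores acyl-CoA inside mitochondria, had peaks within 43 bp of its start site in WT replicates 1 and 2 and miR-187 replicate 1, with folds of 5.11, 5.41 and 5.24 and 8, 16 and 10 reads, folds that lay close together. Cpt1a, the rate-limiting carnitine transferase of most tissues, had a peak in both WT libraries only, but at different places: 9 bp from the start site in replicate 2 (fold 4.65, 23 reads) and 36744 bp into the gene in replicate 1 (fold 5.13, 7 reads). This pattern ended with a 5 kb window, as miR-187 replicate 1 had a summit 3567 bp outside the gene (fold 6.82, 14 reads). Slc25a20, the carnitine carrier of the inner membrane, was in miR-187 replicate 2 alone (fold 5.38, 6 reads), 6417 bp downstream of its start site. Cpt1b, the muscle form, had none.

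Of the 7 beta-oxidation genes 3, 5, 1 and 1 had a peak, and the 1 in both miR-187 libraries was Acadm, the medium-chain acyl-CoA dehydrogenase. Its single region, chr3:153943926-153944969, overlapped the start site at position 153944643 and was the only region at the 44 genes with a peak in all 4 libraries. The summits held 14 and 17 reads in WT replicates 1 and 2 and 11 reads in each miR-187 library, with folds of 6.58, 5.29, 6.67 and 6.52. The raw read counts of the miR-187 libraries were below both WT counts, while the folds of the groups overlapped. These counts were not scaled for depth, so they do not rank the groups. The background density was 1.7, 5.06 and 1.95 times that of miR-187 replicate 2 in WT replicates 1 and 2 and miR-187 replicate 1. The 250 bases before the start site follow because the merged region covers them (RefSeq, GRCm38.p6, minus strand, chr3:153944644-153944893). Capitals mark a match to the estrogen-related receptor motif AAGGTCA, read here from the other strand. The match is at the end of the stretch far from the start site. The peaks of WT replicates 1 and 2 ran past it, to positions 153944969 and 153944938. Those of miR-187 replicates 1 and 2 stopped short of it, at 153944881 and 153944754, so the match lay in the WT peaks alone.
Acadm: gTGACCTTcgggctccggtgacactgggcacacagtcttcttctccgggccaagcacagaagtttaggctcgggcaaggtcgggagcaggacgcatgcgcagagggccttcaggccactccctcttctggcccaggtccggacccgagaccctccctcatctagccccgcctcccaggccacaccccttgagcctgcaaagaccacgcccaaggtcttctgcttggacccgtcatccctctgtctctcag

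The remaining beta-oxidation genes with a peak were listed only in WT libraries. Of all protein-coding genes, 7.88% were in both WT lists alone, 9.07% in WT replicate 2 alone and 4.9% in WT replicate 1 alone. Acadvl, for very long chains, had 8 reads (fold 5.11) in WT replicate 1 and 14 reads (fold 4.63) in WT replicate 2, at summits 113 bp after and 8 bp before its start site that also fell in the 2 kb window of Dlg4. Hadh, which oxidises short 3-hydroxy chains, had 9 reads (fold 5.21) and 14 reads (fold 6.76) at 6 and 13 bp upstream of its start site. Acadl, for long chains, and Acads, for short chains, were in WT replicate 2 alone (folds 4.14 and 4.26, 12 and 10 reads). Hadha and Hadhb, the subunits of the trifunctional protein, had no peak in any list. After thinning to the lowest density the expected chance that the gene would still be listed was 0.57 and 0.125 for Acadvl and 0.456 and 0.293 for Hadh in WT replicates 1 and 2. For Acadl and Acads the chance was 0.0693 and 0.117 in WT replicate 2.

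The 6 regulators had peaks at 5, 5, 4 and 2 genes (83.3%, 83.3%, 66.7% and 33.3%). Esrra, which encodes the estrogen-related receptor alpha, an activator of oxidative genes, had the highest fold of all 112 peaks, 8.91 with 17 reads in WT replicate 1, at -196 bp from its start site (negative values are upstream). The same region held 23 reads in WT replicate 2 (fold 6.49) and 7 reads in miR-187 replicate 2 (fold 5.63), and no peak in miR-187 replicate 1, the deeper of the 2 miR-187 libraries. What placed Esrra in the list of miR-187 replicate 1 was a peak on the far side of the gene, 62 bp from the start of Trmt112 (fold 6.54, 13 reads), which WT replicate 2 also had (fold 5.26, 15 reads). Esrra thus counted as present in all 4 libraries through regions at separate start sites. Its upstream sequence is shown because the peaks of 3 libraries overlap it (RefSeq, GRCm38.p6, minus strand, chr19:6921809-6922058), with capitals on GC boxes, and that of Pdk4 (minus strand, chr6:5496279-5496528) because those of 3 libraries cover it, with capitals on a CCAAT box.
Esrra: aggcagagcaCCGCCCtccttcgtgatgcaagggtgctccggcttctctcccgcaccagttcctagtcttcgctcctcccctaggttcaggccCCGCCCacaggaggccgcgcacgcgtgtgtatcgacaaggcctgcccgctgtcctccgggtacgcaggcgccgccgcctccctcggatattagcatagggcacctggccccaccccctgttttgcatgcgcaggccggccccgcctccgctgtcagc
Pdk4: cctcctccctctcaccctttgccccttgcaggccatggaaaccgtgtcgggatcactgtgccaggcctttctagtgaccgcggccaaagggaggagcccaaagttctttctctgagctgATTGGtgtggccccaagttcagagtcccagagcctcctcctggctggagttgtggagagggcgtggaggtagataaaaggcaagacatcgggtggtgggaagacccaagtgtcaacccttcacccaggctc

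Hif1a, the oxygen-regulated subunit that drives glycolytic genes in hypoxia, had peaks in WT replicates 1 and 2 (folds 6.25 and 5.73, 11 and 17 reads) and 2 in miR-187 replicate 1 (folds 4.55 and 5.19, 9 and 10 reads). Epas1, its endothelial relative HIF-2 alpha, had a peak 199 to 465 bp outside the gene in the same 3 libraries (folds 4.17, 5.67 and 5.26, with 8, 22 and 11 reads). Ppard, a fatty acid receptor, was in them too, with folds of 5.98, 4.08 and 5.49 at its start site. Ppargc1a, the coactivator of mitochondrial biogenesis, had peaks in the WT libraries only (1 of 5 reads and 3 of 9 to 15 reads), none near a start site and none shared between the lists, in a gene 661605 bp long. Ppara, the fatty acid receptor of liver and heart, was in miR-187 replicate 2 alone (fold 5.65, 6 reads), at -599 bp from a start site.

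By side of metabolism, glucose genes had a peak in 52.2%, 65.2%, 65.2% and 4.35% of 23 genes, with the libraries in the order used above. Fatty acid genes had one in 40%, 60%, 26.7% and 13.3% of 15. In miR-187 replicate 1, glucose genes were thus at the level of the deeper WT library. Fatty acid genes there, at 26.7%, were below both WT libraries and close to the 27.0% of all protein-coding genes. That share of all genes was itself below both WT shares (30.9% and 39.7%). The Wilson intervals of glucose and fatty acid genes in this library (44.9% to 81.2% and 10.9% to 52%) overlapped. In miR-187 replicate 2, 1 glucose gene and 2 fatty acid genes had a peak, where the share of all protein-coding genes was 5.22%. The intervals there (0.772% to 21% and 3.74% to 37.9%) overlapped and both held 5.22%, so these counts give no order of the sides. Among 50 other genes of these pathways that had not been listed, the order in miR-187 replicate 1 was the other way around: other glucose and pyruvate genes numbered 10, 10, 5 and 0 of 22, and other fatty acid genes 14, 18, 13 and 3 of 28.

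**Figure D3:**
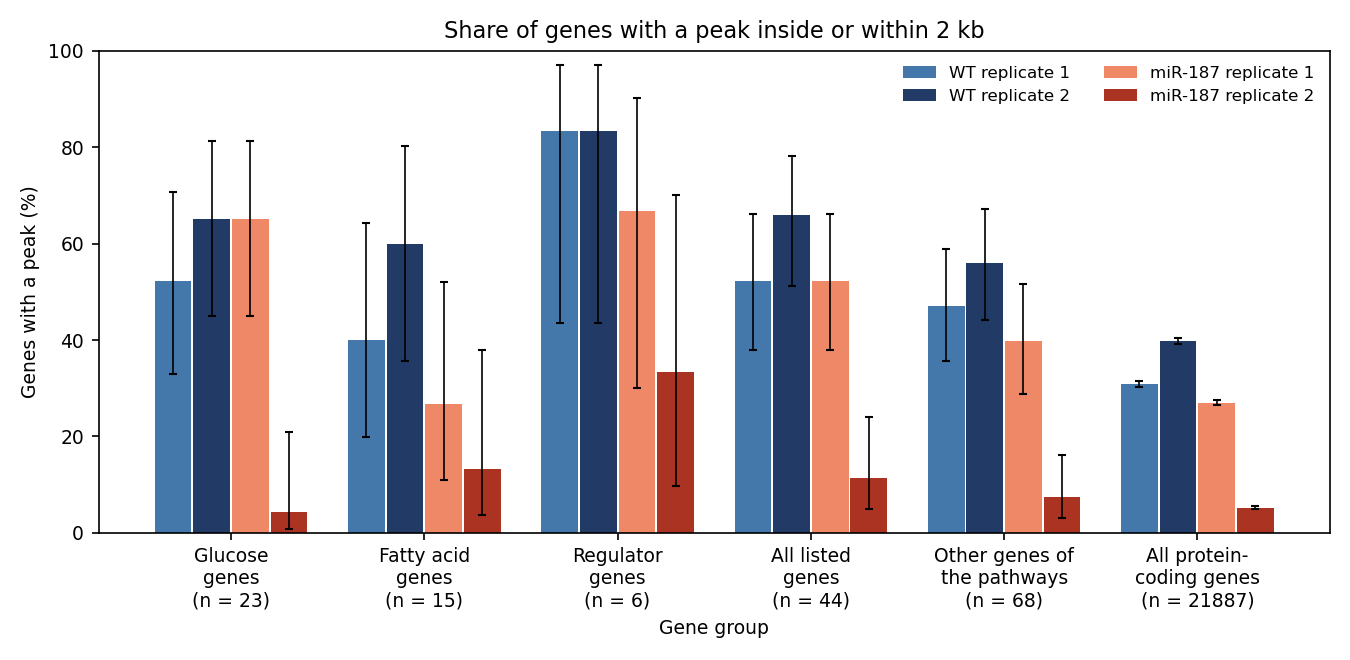
Share of genes with a peak inside the gene or within 2 kb, in percent, by gene group and library; bars are single libraries and error bars are 95% Wilson intervals that cover counting error only. The 44 genes together stand above all protein-coding genes in every library, and the intervals of the 15 fatty acid genes overlap between WT replicate 1 and miR-187 replicate 1.

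A peak in both WT libraries was found at 20 of the 44 genes. Of these, 13 also had one in miR-187 replicate 1 and 7 (Pfkp, Gapdh, Slc2a1, Cpt1a, Acadvl, Hadh and Ppargc1a) had none in either miR-187 library. The 7 are 35% of the 20, against 33.6% of the 5130 protein-coding genes that both WT lists share, so the share was near that of all genes. The count was 4 with a −log10 q of at least 5, 1 with lists of equal length, 12 with WT replicate 1 left out and 18 with miR-187 replicate 1 left out. With a 5 kb window it was 6, without Cpt1a. As a share of all genes tested the 7 are 15.9% of the 44, where the background was 7.88%. Both WT libraries shared a merged region at 4 of the 7 (Pfkp, Gapdh, Acadvl and Hadh), whereas at Slc2a1, Cpt1a and Ppargc1a their peaks did not overlap. Genes with a peak in all 4 libraries were Acadm and Esrra, where 2.35% of all genes had this pattern.

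Counted as regions, the 44 genes held 67 of the 20919 merged regions, and 18 of the 67 had a peak in both WT libraries. Of those 18, 13 (72.2%) were also in miR-187 replicate 1, 2 in miR-187 replicate 2, and 4 (22.2%) in neither. Over all 4253 regions with a peak in both WT libraries, 54.9% were in miR-187 replicate 1 and 42.4% in neither miR-187 library. The largest classes at the 44 genes were regions of WT replicate 2 alone (18), the deepest library and also the largest class overall (6095 of 20919), and regions of both WT libraries and miR-187 replicate 1 (12, against 2038 overall).

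Of the 112 peaks, 75 (67%) lay within 500 bp of a start site in the table, 72 of them of the gene itself, and 12 peaks also fell in the window of another protein-coding gene. By library the share near a start site was 72.4%, 62.8%, 68.6% and 60%, where all peaks of the lists had 38%, 43.7%, 45.8% and 32.4%. After all summits were shifted by 100 kb, 2.08% to 2.39% of them lay that near. Reads at the summit ran from 5 to 26 with medians of 10, 15, 10 and 7, against medians of 8, 14, 9 and 6 for all peaks. The median rank of these peaks within their lists was 69.7, 66.9, 48.3 and 63. Seen from the start sites, 37.5%, 48.2%, 44.6% and 7.14% of 56 windows of 40 genes had a summit within 500 bp, where all 21263 windows had 18.5%, 27.4%, 17.9% and 2.59%. Cpt1b, Slc2a4, Fabp4 and Epas1 had no entry in the start site table.

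**Figure D4:**
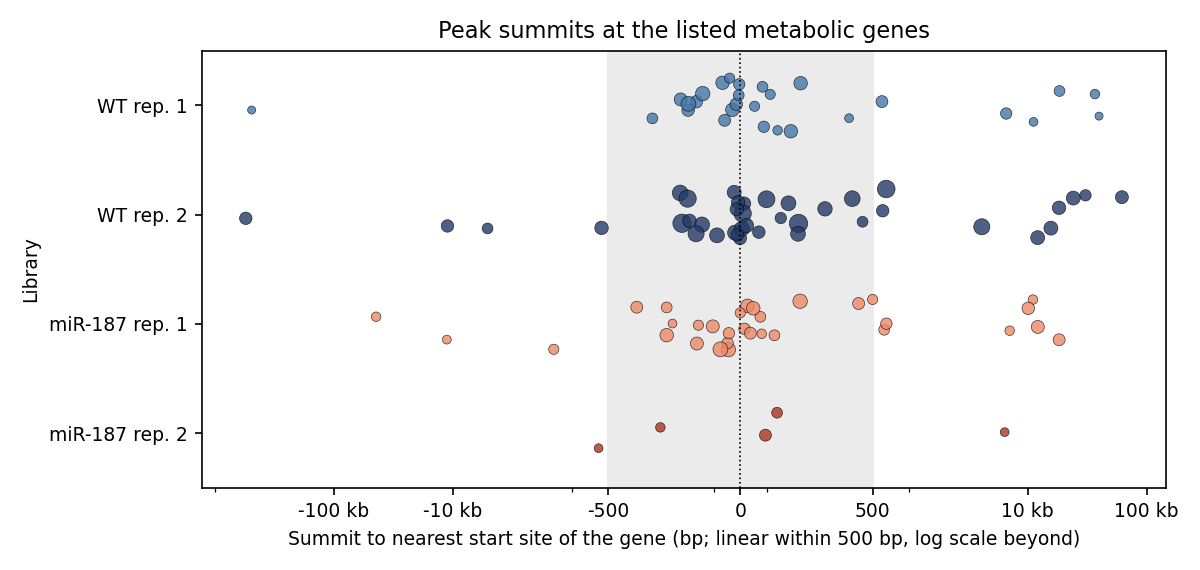
Distance in bp from each peak summit to the nearest start site of its own gene, by library, on an axis that is linear within 500 bp (shaded) and logarithmic beyond; circle area is the number of reads at the summit, and genes without a table start site are left out. Most summits of each library fall in the shaded span, 72 in all.

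Motif letters were searched on both strands from 250 bases before to 50 bases after each start site. The hypoxia response core ACGTG was in 37.5% of the 56 windows and in 20.9% of all 21263. On the glucose side it was in windows of Hk1, Hk2, Pkm, Ldha, Slc2a1, Slc16a1, Pfkfb2, Pfkfb3, Pfkm, Aldoa, Gapdh, Pgam1 and Pdk2. Beyond that side it was in windows of Acadvl, Ppard, Ppargc1a and Hif1a. A named window need not hold a peak: the Pkm match was at the start site at position 59657227, whose window no peak overlapped. The E-box CACGTG was in 12.5% against 7.84%, the GC box GGGCGG in 55.4% against 46.2%, and the estrogen-related receptor motif AAGGTCA in 5.36% (Acadm, Eno1 and Tpi1) against 4.08%. The ETS core CCGGAAG was in 3.57% against 11.6%, CCAAT in 33.9% against 38.2% and the AP-1 site TGANTCA in 3.57% against 6.99%. These windows were richer in G and C than the average (median 62.2% against 56.3%), and the part of base composition in the motif shares was not tested.

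The 2 kb rule had no peak near its limit on the inner side. The outermost assigned summits were the 2 at Trmt112, 1315 and 1341 bp beyond Esrra, and the nearest excluded ones lay 2041 bp (fold 5.73, 17 reads) and 2073 bp (fold 8.54, 13 reads) beyond Pfkl in WT replicates 2 and 1. Next came summits 2656 to 2689 bp beyond Aldoa in WT replicates 1 and 2 and miR-187 replicate 1, with folds of 4.17 to 8.33.

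Of 68 further genes of the same pathways, 32, 38, 27 and 5 (47.1%, 55.9%, 39.7% and 7.35%) had a peak, between the shares of the 44 genes and of all genes in each library. Those in all 4 lists were Acad9 (folds 6.55, 4.38, 8.75 and 6.96), an acyl-CoA dehydrogenase that also assembles respiratory complex I, Etfdh (5.91, 6.28, 9.38 and 6.08), which passes electrons from beta-oxidation to ubiquinone, and Egln3 (4.21, 5.3, 6.77 and 4.55), a prolyl hydroxylase that marks HIF for degradation. At all 3 the fold was highest in miR-187 replicate 1, while the fold of miR-187 replicate 2 was not above both WT values at Etfdh or Egln3. Those in both WT lists alone were Pfkfb4 (7.43 and 4.48), Dlat (5.41 and 5.56), Dld (7.5 and 5.47), Pdp1 (5.88 and 7.19), Fabp5 (3.5 and 5.45) and Arnt (5.26 and 5.42). They are 24% of the 25 genes of this list that had a peak in both WT libraries, below the 33.6% of all protein-coding genes. Dlat and Dld are subunits of the pyruvate dehydrogenase complex and Pdp1 is a phosphatase that activates it, but the subunit genes Pdhb (folds 7.98, 5.86 and 4.76) and Pdhx (7.14, 7.14 and 5.43), named after their values were seen, were listed in both WT libraries and miR-187 replicate 1. None of the 68 was in both miR-187 lists alone.

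**Figure D5:**
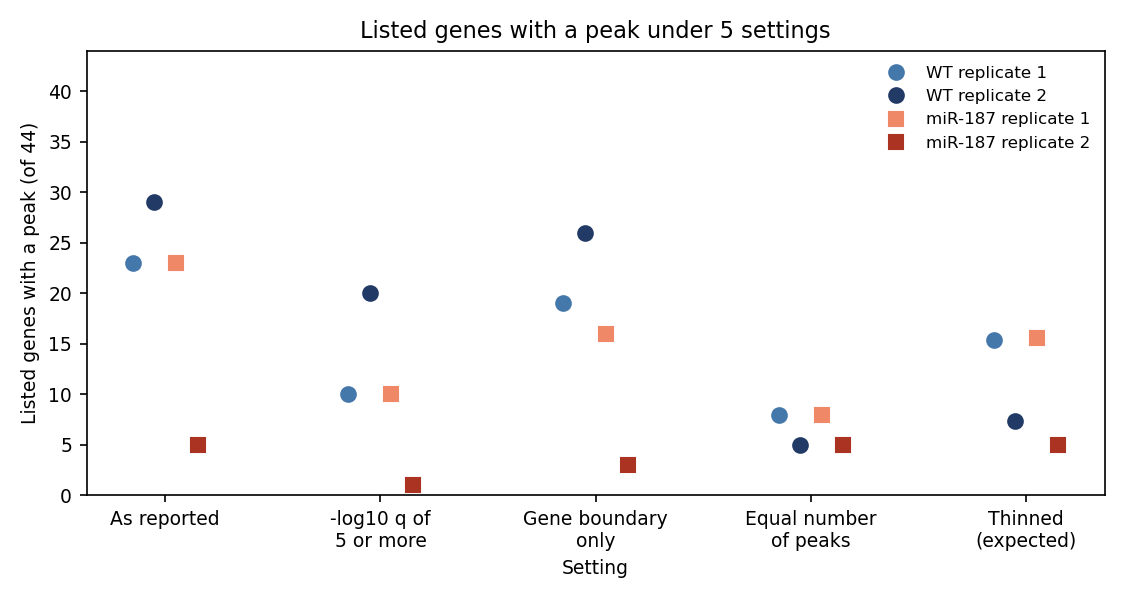
Number of the 44 genes with a peak in each library under 5 settings (as reported, a stricter q, summits near a gene boundary only, lists of equal length, and the number expected after thinning to the lowest background density). The gap between WT replicate 2 and the others narrows or turns when lists are made equal in length (8, 5, 8 and 5 genes) or reads are thinned to 1 background density (15.4, 7.34, 15.6 and 5).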

How the data were processed

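ATAC-seq peaks came from 4 libraries, grouped by their titles. Per the labels, 50000 cells a sample were used and reads were paired. The submitters' processing notes name FastQC, Bowtie2 2.2.6, SAMtools 1.10, deepTools 3.3.2, MACS2 2.2.7.1, ChIPseeker, DiffBind, HOMER 4.11 and mm10 (GRCm38), without roles. Each deposited narrowPeak list gave, from the authors' peak caller, a score, a fold enrichment at the summit (a ratio), −log10 p, −log10 q and the summit offset, and replicates were not pooled. Whether duplicates were removed and ends were shifted for the transposase is not given in the sources used here. No per-site counts were used, so values could be compared only where peaks were called.

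The 6, 20, 6 and 0 scaffold peaks in the order of the libraries above were left out. Reads at the summit were solved from the fold as (reads + 1)/(background + 1) and from the Poisson tail above the reads. Every peak (100%) had a whole-number solution that met its −log10 p to 0.0005. With a tail that also counts the summit reads, at most 0.268% of a list had one. The lowest background, taken over 200 bp, gave 1751, 5227, 2016 and 1032 reads per Mb. These are inferences. The solver was also run on peaks simulated with the same formula, which cannot test whether the formula is that of the peak caller. Peaks overlapping by at least 1 bp made 1 region. Genes and start sites were RefSeq GRCm38.p6.

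The genes, the lists of other pathway genes and markers, and the motifs were chosen with earlier results of these data known. Genes with a peak in at least 2 lists are named with values, those in 1 list with their strongest peak, those in none by name, and other pathway genes when in all 4 lists or in both of 1 group alone. No test was run over the genes. Nothing says that the libraries came from separate animals, so the SD may be technical. Alternatives were a −log10 q of at least 5, windows of 1 and 5 kb, boundaries only, equal list lengths, thinning, leaving out single libraries and a replicate block. Tables were made with pandas 2.3.3, numpy 2.4.6 and scipy 1.17.1 in Python 3.11.15, and plots with matplotlib 3.10.9.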

Additional observations from a re-analysis of the deposited data

How the results depend on the processing

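The difference of -12 genes between the groups was between -14.5 and -9.5 with a −log10 q of at least 5, windows of 1 or 5 kb, or boundaries only. It was 0 with an equal number of peaks per list and -1.07 after thinning, and without single libraries it ran from -21 (without miR-187 replicate 1) to -3 (without miR-187 replicate 2). The count of 7 genes listed in both WT libraries alone was 4 with a −log10 q of at least 5 (Pfkp and Slc2a1 of the 7, joined by Acsl1 and Hif1a) and 1 with equal lists (Acsl1, none of the 7). Without single libraries it ran from 7 to 18, at 12 when WT replicate 1 was left out and 18 when miR-187 replicate 1 was. Pfkfb2, the 1 gene listed in both miR-187 libraries alone, was lost (0) when summits had to lie within 1 kb of a gene boundary, since its start site is internal. Without single libraries the count ran from 1 to 4, with 3 without miR-187 replicate 1 and 4 without miR-187 replicate 2. The excess of 19.7 percentage points over all genes was 8.42 with equal lists, 12.8 with a −log10 q of at least 5 and 17.6 to 24.3 without single libraries. Thinning matched only the inferred background density, and the lists still differed afterwards in the share of all genes. The cause of these changes was not tested.

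With a replicate block the difference was -12, from same-numbered differences of 0 and -24. The labels give no reason to pair the numbers. A gene missing from a list was not shown to be closed, since a call needed at least 4, 7, 5 and 4 reads at the summit in the order of the libraries above.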

Other observations

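The genes found in the shallowest library, miR-187 replicate 2, were Pfkfb2, Acadm, Esrra, Slc25a20 and Ppara, with 9, 11, 7, 6 and 6 reads at their strongest summits. Slc25a20 and Ppara were listed in no other library. Summits just outside the 2 kb rule were found for several genes listed in few libraries or none. For Gpi1 they lay 3793 bp outside the gene in WT replicate 2 (fold 4.91, 20 reads) and 3800 bp in miR-187 replicate 1 (fold 9.57, 17 reads). In WT replicate 1 a Gpi1 summit lay 4816 bp outside (fold 5.77, 8 reads). For Cpt1b they lay 4044 bp outside in WT replicate 1 (fold 7.61, 13 reads) and 4134 bp outside in WT replicate 2 (fold 7.06, 24 reads), with 2 summits in miR-187 replicate 1 at 3620 and 4092 bp (folds 4.9 and 4.55). For Cpt1a, listed by the rule in the WT libraries alone, summits 3116, 3241 and 3567 bp outside the gene were present in WT replicates 2 and 1 and miR-187 replicate 1 (folds 7.55, 6.25 and 6.82), so its WT-alone pattern ended with the 5 kb window. These genes were picked after their values were seen.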
